A study of Mus musculus with 3 samples.

Results

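Extracellular metalloproteases and their tissue inhibitors were described in C2C12 cells, a mouse myoblast line that makes muscle fibres, or bone-like cells when given a bone morphogenetic protein. The set holds every gene whose mouse symbol begins with Mmp, Adam, Adamts, Adamtsl or Timp followed directly by a digit. These are 84 of the 22706 genes in the deposited transcript files, with 23 MMP, 34 ADAM, 19 ADAMTS, 4 ADAMTS-like and 4 TIMP genes. The level of a gene is its FPKM, the fragments per kilobase of transcript per M (mega) mapped fragments, summed over its RefSeq transcripts and the transcripts assembled at its locus. At 1 FPKM or more in any library stood 32 of the 84, namely 7 MMP, 10 ADAM, 9 ADAMTS, 3 ADAMTS-like and 3 TIMP genes. A gene that passes this floor through a single library must differ somewhat between libraries. Counts of the 32 called in a comparison are therefore set beside the same counts over all 11463 genes that passed the same floor.

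RNA-seq of polyadenylated RNA covered 3 groups with 1 library each. The first was made from cells transfected with a short hairpin RNA labelled shKSRP, kept in growth medium with 20% fetal bovine serum and given no other agent. The second, labelled DM + BMP2, was made from mock-transfected cells. For it the protocol names BMP2 at 100 to 300 ng/ml in a medium holding horse serum at 2%, and BMP2 is the morphogen used to make C2C12 cells form osteoblasts. The third was made from mock-transfected cells in the growth medium with 20% serum and no agent. All 3 come from the same stock of C2C12, a clonal line. The BMP2 cells differ from mock in serum as well as in BMP2, which cannot be told apart, and the labels do not settle how long they were treated. Whether the shKSRP cells were a pool or a clone is not stated in the labels. Each group being a single library, the differences below are without replicates and carry no p-values.

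KSRP, the protein of the gene Khsrp, binds AU-rich elements in mRNAs and promotes their decay. A hairpin against KSRP targets Khsrp, which is therefore the check of the label. Khsrp stood at 28.4 ± 0.64 FPKM in the library labelled shKSRP, 27.1 ± 0.67 FPKM in the BMP2 library and 31.4 ± 0.85 FPKM in mock. Its log2 ratio to mock was -0.14 for shKSRP and -0.20 for BMP2, so the label is not borne out at the RNA level and every direction below refers to the library as labelled. Here and below, ± is the half-width of the deposited 95% interval, combined over the transcripts of the gene. It covers counting and assignment error within a library only. The tools listed for processing include none for marking copies made by PCR. The interval widths correspond to 68.5 M fragments in the library labelled shKSRP, 60.4 M in the BMP2 library and 62.1 M in mock. Of 6 myoblast markers, 0, 1 and 1 were under 1 FPKM and the sums were 308, 261 and 366 FPKM in the same order of libraries. Des, the muscle intermediate filament, had 185, 218 and 280 FPKM, Myod1 34.8, 17.3 and 30.7 FPKM and Myog 6.52, 11.3 and 9.54 FPKM. Myf5 had 48.4, 9.09 and 7.75 FPKM and Pax7 2.90, 0.46 and 0.12 FPKM, so both were 1 or more higher in the library labelled shKSRP than in mock on the log2(FPKM + 1) scale, by 2.50 and 1.8. Cdh15 had 31.1, 5.02 and 38.3 FPKM, a log2 ratio of -2.71 in the BMP2 library against mock. Endothelial (4 genes), epithelial (4 genes) and neural (3 genes) markers were all under 1 FPKM. The part of the differing myoblast markers in the protease values was not tested.

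MMPs are zinc proteases that cut collagens, proteoglycans and other matrix proteins, and most are made as inactive precursors. ADAMs are membrane-anchored relatives, of which several release growth factors, receptors and Notch ligands from the cell surface. ADAMTS proteases are secreted, trim procollagens or cut large proteoglycans, and ADAMTS-like proteins lack the protease domain. TIMPs bind the active site of these enzymes and block it. In muscle and bone the balance of proteases and TIMPs bears on matrix turnover, cell movement and myoblast fusion.

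The stretch of 250 bases before the annotated start is shown for Timp1 and Timp3, the called inhibitors that stood lower in the library labelled shKSRP, and for Mmp14 and Mmp11, the called MMPs of which Mmp14 had the highest level and Mmp11 the largest ratio of BMP2 to mock. The sequences are RefSeq's, in build GRCm38.p6, read 5′ to 3′ towards the gene. Timp1 is at chrX:20869916-20870165 on the + strand, Timp3 at chr10:86300162-86300411 on the + strand, Mmp14 at chr14:54431348-54431597 on the + strand and Mmp11 at chr10:75932503-75932752 on the - strand. Capitals mark a GC box, the letters GGGCGG on either strand, which is the core of the Sp1 site. The AP-1 element, TGANTCA on either strand, is in none of these 4 windows.
Timp1: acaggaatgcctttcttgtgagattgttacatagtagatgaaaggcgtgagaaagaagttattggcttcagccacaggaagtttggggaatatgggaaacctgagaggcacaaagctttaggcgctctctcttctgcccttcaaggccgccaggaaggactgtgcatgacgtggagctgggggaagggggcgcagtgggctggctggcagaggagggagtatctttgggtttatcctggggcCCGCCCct
Timp3: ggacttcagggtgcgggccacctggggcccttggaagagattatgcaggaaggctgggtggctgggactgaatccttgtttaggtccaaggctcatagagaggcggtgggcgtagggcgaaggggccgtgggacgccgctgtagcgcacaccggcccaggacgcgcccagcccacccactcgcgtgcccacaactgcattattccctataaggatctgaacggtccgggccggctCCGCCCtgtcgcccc
Mmp14: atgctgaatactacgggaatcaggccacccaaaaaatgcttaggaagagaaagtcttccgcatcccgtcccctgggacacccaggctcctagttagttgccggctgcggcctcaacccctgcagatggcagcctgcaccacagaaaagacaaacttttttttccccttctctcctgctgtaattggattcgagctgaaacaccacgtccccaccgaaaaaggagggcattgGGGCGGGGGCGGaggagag
Mmp11: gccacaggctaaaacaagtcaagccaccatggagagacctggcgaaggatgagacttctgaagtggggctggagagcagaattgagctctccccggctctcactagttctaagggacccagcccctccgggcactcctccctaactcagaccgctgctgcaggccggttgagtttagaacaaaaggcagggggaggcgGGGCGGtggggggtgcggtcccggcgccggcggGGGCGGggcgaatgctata

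The GC box lies 8 to 3 bases before the start in Timp1 and 15 to 10 bases before it in Timp3. Mmp14 has a pair of adjoining GC boxes, at 19 to 14 and 13 to 8 bases before the start, and the letters of the RUNX element (TGTGGT on either strand) at 114 to 109 bases before it. Mmp11 has GC boxes at 52 to 47 and 19 to 14 bases before the start. A GC box was in 16 of the 23 listed promoters of 20 described members, or 69.6%, beside 58.8% of the 11579 promoters of all genes compared and 32.7% of all 32851 promoters listed. The AP-1 element was in 1 member promoter, that of Adam19, or 4.35%, beside 4.44% for the genes compared. The RUNX letters were in 5 member promoters (21.7%), beside 10.6%. The E box CAGCTG, a form bound by MyoD, was in 4 (17.4%), beside 12%. TATAAA was in that of Adamts1 (4.35%), beside 6.48%. Members with no listed promoter were Adamts10, Mmp16, Adamts5, Adam5, Adamts4, Adam12, Adamts7, Adam9, Adamtsl1, Adamts6, Adamts16 and Mmp2.

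Differences are log2((FPKM + 1)/(FPKM + 1)) between 2 libraries, and a gene is called higher or lower where this ratio is 1 or more in size. The pseudocount of 1 understates the ratio of low genes. In the first comparison, the library labelled shKSRP with mock, 8 of the 32 members were higher and 2 were lower. Over all genes compared, 11.0% were higher and 12.9% lower, or 24.0% in either direction. The 8 were Mmp11, Mmp15, Mmp28, Adam12, Adam23, Adamts2, Adamts4 and Adamts16, and the 2 were the inhibitors Timp1 and Timp3. The median log2 ratio of the members was 0.42, beside -0.02 over all genes. With the trend with transcript length taken out these medians were 0.28 and 0.01. Above 0 were 23 of the 32, beside 48.5% of all genes.

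In the BMP2 library against mock, 9 of the 32 were higher and 1 was lower, beside 9.21% and 8.95% over all genes, or 18.2% in either direction. The 9 were Mmp2, Mmp11, Mmp14, Mmp23, Mmp28, Adam10, Adamts2, Adamts4 and Adamtsl3, and Adam1a, listed at 0 in the BMP2 library, was lower. The members had a median log2 ratio of 0.61, beside 0.03 over all genes, and 27 of the 32 were above 0, beside 52.2%. With the trend with transcript length taken out the medians were 0.43 and 0.01. Of the 7 MMP genes 5 were higher and none was lower, and none of the 3 TIMP genes was called. Both comparisons use the same mock library, so they are not independent. Mmp11, Mmp28, Adamts2 and Adamts4 were called higher in both.

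In the library labelled shKSRP against the BMP2 library, 3 of the 32 were higher and 7 were lower, beside 6.07% and 8.66% over all genes, or 14.7% in either direction. Higher were Mmp15, Adam23 and Adamts4. Lower were Mmp2, Mmp14, Adamts1, Adamtsl1, Adamtsl3, Timp1 and Timp3. Adam23 reached 1 FPKM in the library labelled shKSRP alone, Adamtsl1 in the BMP2 library alone and Adam1a in mock alone. The calls of these genes, here and above, lie in the direction of that library, which the floor favours. The members' median log2 ratio was -0.17, beside -0.02 over all genes. In all, 18 of the 32 were called in at least 1 comparison and 14 in none. The share of all genes called in at least 1 comparison was not counted, so the 18 are not read as a trait of the members. The summed FPKM of all genes was 533262 in the library labelled shKSRP, 564500 in the BMP2 library and 677872 in mock. Scaling the libraries to an equal sum moved the median of all genes to 0.27 for shKSRP against mock and to 0.26 for BMP2 against mock. It turned the split of all called genes in shKSRP against mock to 2030 higher and 944 lower, beside 1264 and 1484 as reported.

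**Figure D1:**
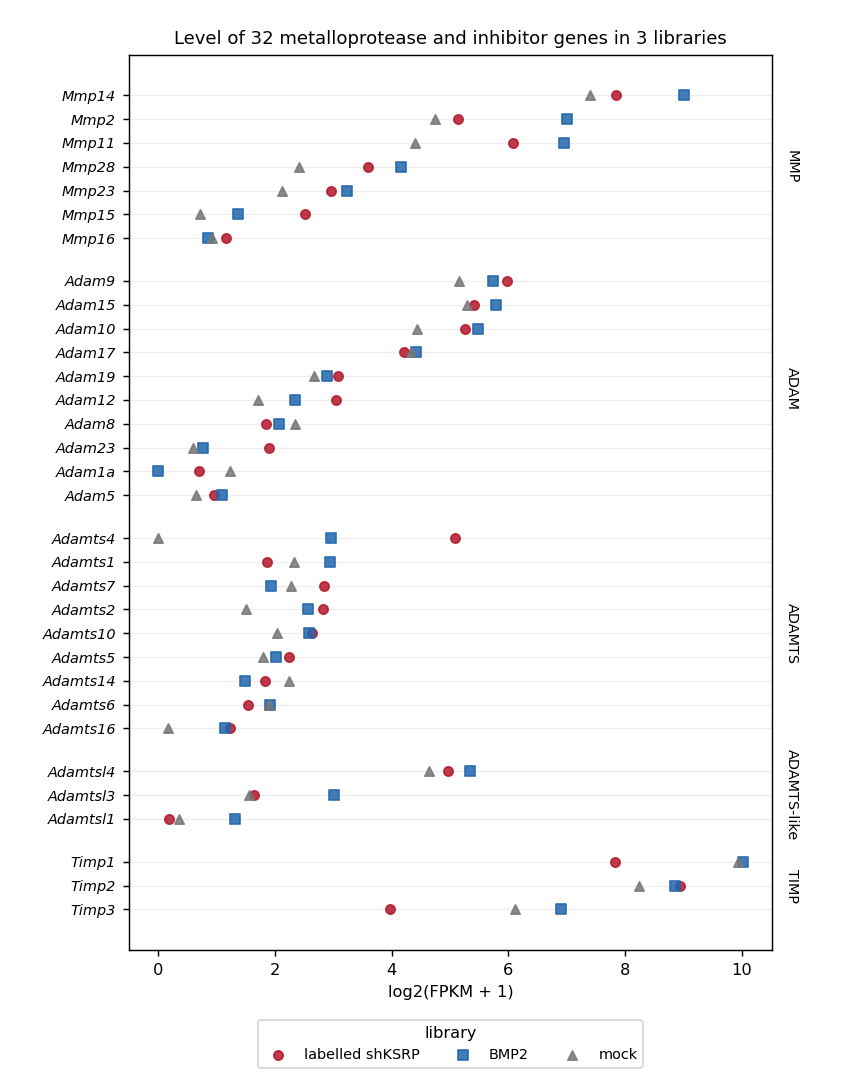
Level of each of the 32 described members as log2(FPKM + 1) on the x axis, with genes by family down the page and 1 point a library (circles, labelled shKSRP; squares, BMP2; triangles, mock). Timp1 and Timp3 in the library labelled shKSRP lie left of the other libraries, most MMP genes are lowest in mock, and a point at 0 is a gene listed at 0.

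Mmp14 was the most abundant protease gene of the set in all 3 libraries, and both it and the gelatinase gene Mmp2 were higher in the BMP2 library than in mock. MMP14 is a membrane-type collagenase that activates the MMP2 precursor, and TIMP2 serves as the bridge between them. Mmp14 (mm9 chr14:55050441-55060095) had 227 ± 2.27 FPKM in the library labelled shKSRP, 512 ± 3.68 FPKM in the BMP2 library and 168 ± 1.72 FPKM in mock. It was 3.05-fold higher in the BMP2 library than in mock, a log2 ratio of 1.60 ± 0.02, and 0.43 ± 0.02 in the library labelled shKSRP against mock, which is under the call. Mmp2 (mm9 chr8:95351227-95377319) had 34.1 ± 1.34, 127 ± 1.66 and 25.9 ± 0.81 FPKM in the libraries labelled shKSRP, BMP2 and mock. It was 4.90-fold higher in the BMP2 library than in mock (log2 ratio 2.25 ± 0.05). Against the BMP2 library, the library labelled shKSRP was 3.72-fold lower for Mmp2 and 2.25-fold lower for Mmp14. Timp2 had 489 ± 2.80 FPKM in the library labelled shKSRP, 459 ± 2.88 FPKM in the BMP2 library and 302 ± 2.30 FPKM in mock. Its log2 ratios to mock of 0.69 and 0.60 are under the call, and in mock alone it shares its locus with another gene.

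The transcripts behind the Mmp14 values differ between the libraries. In the library labelled shKSRP all of its FPKM was on the RefSeq transcript. In the BMP2 library 416 of the 512 FPKM was on an assembled transcript that ends 880 bases past the RefSeq 3′ end. It has another first exon (mm9 chr14:55051602-55051705), downstream of the RefSeq first exon (mm9 chr14:55050441-55050810). The promoter window shown above lies at the annotated start, and use of the other exon as a start was not tested. In mock all of the FPKM was on an assembled transcript that ends 898 bases past the RefSeq 3′ end and begins upstream of the RefSeq start, at 55050327. The longer assembled transcripts lower FPKM for the same number of fragments. Taken as fragments over 1 fixed gene length, Mmp14 stood at 227, 611 and 234 FPKM in the libraries labelled shKSRP, BMP2 and mock, with log2 ratios to mock of -0.04 for shKSRP and 1.38 for BMP2. On RefSeq transcripts alone, mock is at 0 and the difference between the library labelled shKSRP and the BMP2 library turns to 1.23. At Mmp2, mock has an assembled single-exon transcript of 83.1 FPKM at the 3′ end (mm9 chr8:95376392-95377321) that belongs to no locus of the gene. Its share over the length of the gene is 25.4 FPKM. The log2 ratios of Mmp2 to mock, for shKSRP and then for BMP2, were 0.39 and 2.25 as reported and 0.02 and 2.25 with fragments over a fixed gene length. With this transcript counted in over that fixed length they were -0.94 and 1.29.

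**Figure D2:**
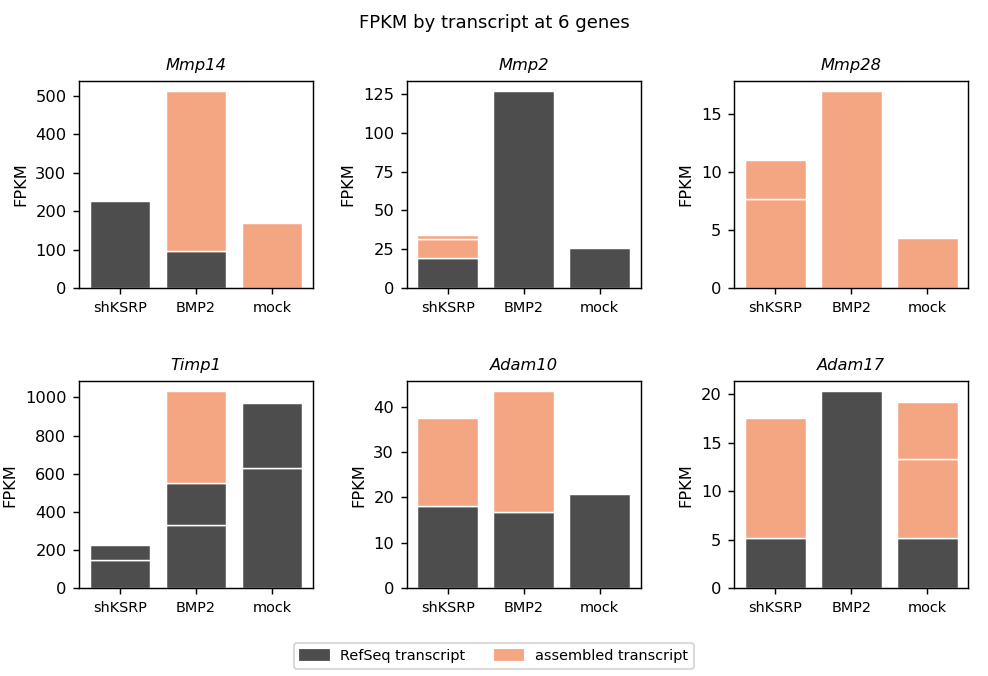
FPKM of 6 members, each bar a library (labelled shKSRP, BMP2, mock) and each segment a transcript, dark for RefSeq transcripts and light for transcripts assembled in that library. Mmp14 is all dark in the library labelled shKSRP and all light in mock, and Mmp28 is all light in the 3 libraries.

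Among the other MMPs, Mmp11 and Mmp28 were higher than mock in both other libraries. Mmp11 encodes stromelysin-3, which is activated by furin inside the cell. It had 67.0 ± 1.33 FPKM in the library labelled shKSRP, 123 ± 1.93 FPKM in the BMP2 library and 20.1 ± 0.84 FPKM in mock. This made it 3.33-fold higher in the library labelled shKSRP (log2 ratio 1.69 ± 0.06) and 6.14-fold higher in the BMP2 library (2.56 ± 0.06), all on RefSeq transcripts. Mmp11 shares its locus with another gene, and mock also has a single-exon transcript of 24.6 FPKM over its 3′ end (mm9 chr10:75385968-75386932). A fixed gene length left the log2 ratios at 1.69 and 2.56, and with that transcript also counted in they were 1.10 for shKSRP and 1.97 for BMP2.

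Mmp28 encodes epilysin, a secreted MMP best known from skin and testis. It had 11.0 ± 0.47 FPKM in the library labelled shKSRP, 16.9 ± 0.51 FPKM in the BMP2 library and 4.31 ± 0.26 FPKM in mock, which gave log2 ratios to mock of 1.18 and 1.76. In all 3 libraries the full value was on assembled transcripts that end 2052 to 2060 bases past the RefSeq 3′ end, and the RefSeq transcript was listed at 0. Mmp23, a membrane-bound MMP released by furin, had 6.76 ± 0.59 FPKM in the library labelled shKSRP, 8.41 ± 0.65 FPKM in the BMP2 library and 3.36 ± 0.40 FPKM in mock. It was called in the BMP2 library alone (1.11), while its ratio in the library labelled shKSRP was 0.83, the value just under the call. In the BMP2 library and mock, but not in the library labelled shKSRP, Mmp23 shares its locus with another gene.

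Mmp15, a further membrane-type MMP, was highest in the library labelled shKSRP. It had 4.69 ± 0.29 FPKM there, 1.57 ± 0.18 FPKM in the BMP2 library and 0.65 ± 0.11 FPKM in mock. The log2 ratio of the library labelled shKSRP was 1.78 ± 0.12 to mock and 1.15 ± 0.12 to the BMP2 library. Of the other membrane-type MMP genes, Mmp16 was called in no comparison and Mmp17, Mmp24 and Mmp25 stayed under 1 FPKM. The collagenase genes Mmp1a, Mmp1b, Mmp8 and Mmp13 were under 1 FPKM in every library, unlike the gene of the membrane-type collagenase, Mmp14. Also under 1 FPKM in every library were the gelatinase gene Mmp9 and the genes of matrilysin and metalloelastase.

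Timp1 and Timp3 were the only called inhibitors, and both fell in the library labelled shKSRP. With libraries scaled to an equal sum of FPKM, Timp2 was called higher in the library labelled shKSRP than in mock (log2 ratio 1.04). Under that scaling Timp3 was called higher in the BMP2 library than in mock (1.04). Timp1, a secreted inhibitor that acts weakly on the membrane-type MMPs, fell to 227 ± 4.89 FPKM in the library labelled shKSRP, against 1034 ± 12.1 FPKM in the BMP2 library and 969.8 ± 10.7 FPKM in mock. It was 4.28-fold lower than in mock (log2 ratio -2.09 ± 0.03) and 4.56-fold lower than in the BMP2 library (-2.18 ± 0.04). Timp3, which binds to the matrix and also inhibits ADAM17 and the aggrecanases, fell to 14.7 ± 0.42 FPKM in the library labelled shKSRP, against 118 ± 1.51 FPKM in the BMP2 library and 68.3 ± 0.96 FPKM in mock. It was 4.63-fold lower than in mock (-2.14 ± 0.04) and 8.02-fold lower than in the BMP2 library (-2.92 ± 0.04). Between the BMP2 library and mock, the log2 ratios were 0.09 for Timp1 and 0.78 for Timp3, both under the call. Timp4 was under 1 FPKM in all libraries. Timp1 and Timp3 are on different chromosomes, X (mm9 chrX:20447292-20451863, + strand) and 10 (mm9 chr10:85763157-85812250, + strand).

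The split of Timp1 between its RefSeq transcripts, which differ by 3 bases at the start of exon 2, was 64.9% on the shorter form in the library labelled shKSRP, 59.9% in the BMP2 library and 64.8% in mock. The BMP2 library alone has an assembled Timp1 transcript, at 481 FPKM, with another first exon of 27 bases (mm9 chrX:20447528-20447554) downstream of the RefSeq first exon. It shares 4 of its 6 exons with RefSeq by start and end. No such transcript was assembled in the other libraries, and each library was assembled on its own.

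**Figure D3:**
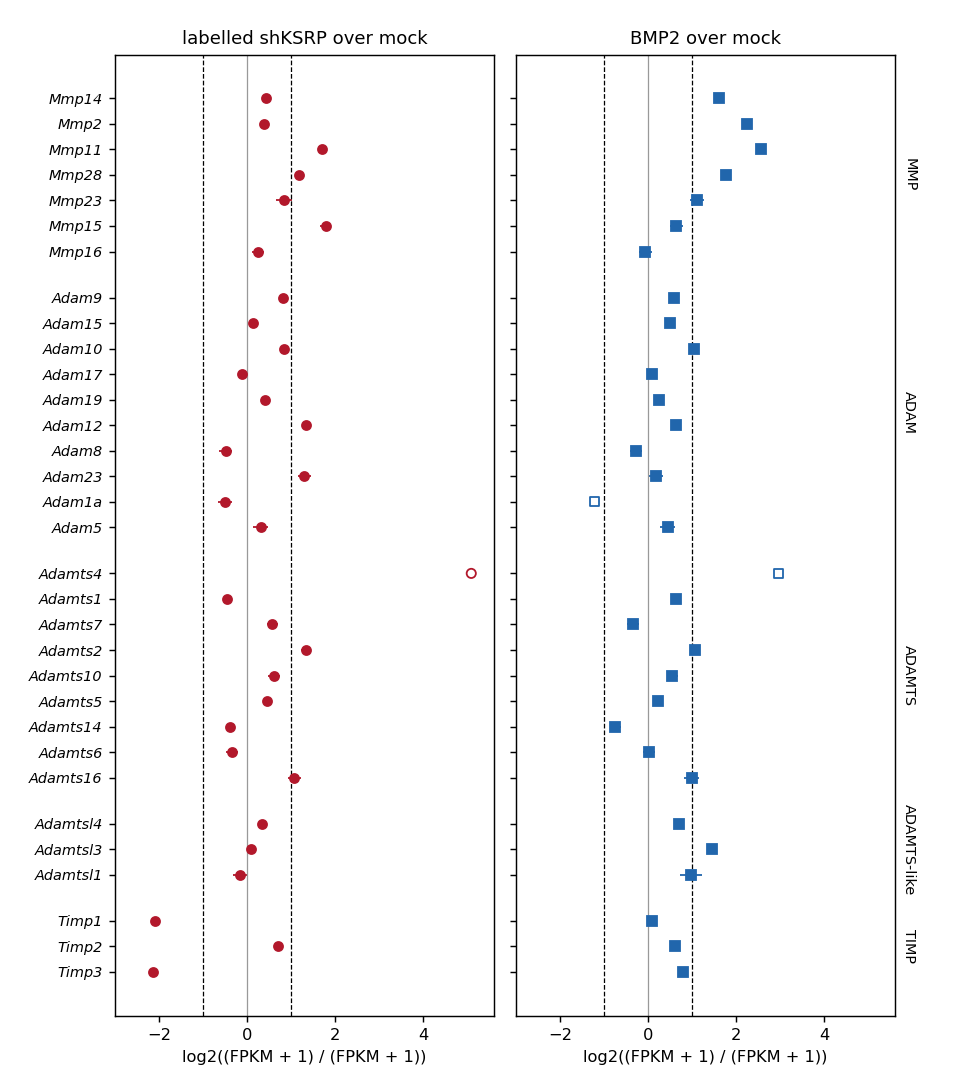
Log2 ratio of FPKM + 1 of each described member, in the library labelled shKSRP over mock (left) and the BMP2 library over mock (right), with bars for the combined 95% interval and dashed lines at the call of 1 in size. Open symbols have a library listed at 0. Timp1 and Timp3 lie near -2 on the left and between 0 and 1 on the right.

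Summed over the described genes, MMP transcripts came to 352 FPKM in the library labelled shKSRP, 790.1 FPKM in the BMP2 library and 223 FPKM in mock. TIMP transcripts came to 730.1, 1611 and 1340 FPKM in the same libraries. The ratio of TIMP to MMP sums was 2.07 in the library labelled shKSRP, 2.04 in the BMP2 library and 6.0 in mock. The similar ratios had different parts, with the TIMP sum lowest in the library labelled shKSRP and the MMP sum highest in the BMP2 library. Mmp14 made up 64.6%, 64.8% and 75.3% of the MMP sum, so the ratio moves with how its transcripts are counted. With fragments over a fixed gene length it was 2.07, 1.66 and 4.57, with all overlapping transcripts counted in 2.07, 1.66 and 4.07, and on RefSeq transcripts alone 2.26, 3.08 and 26.7, each in the libraries labelled shKSRP, BMP2 and mock. Mock had the highest ratio in each.

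**Figure D4:**
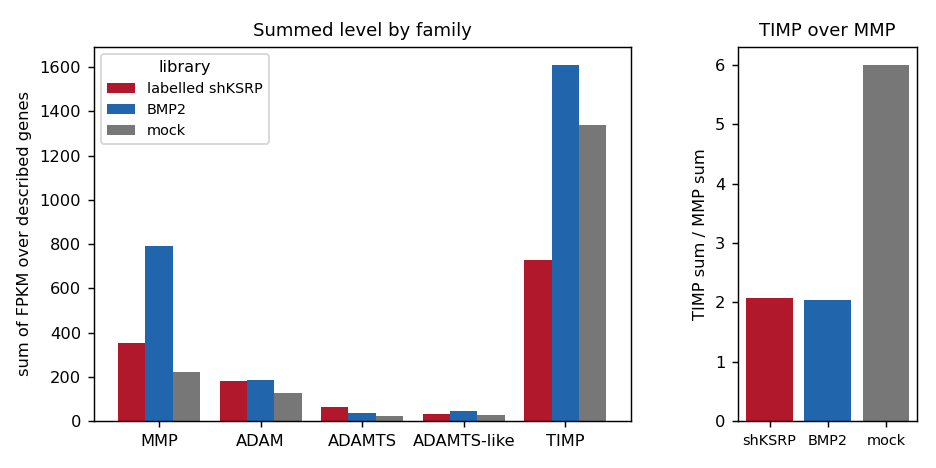
Left, FPKM summed over the described genes of each family (MMP, ADAM, ADAMTS, ADAMTS-like, TIMP), with bars for the library labelled shKSRP, the BMP2 library and mock. Right, the TIMP sum over the MMP sum, which was 2.07, 2.04 and 6.0.

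Of the 10 described ADAM genes, 2 were higher in the library labelled shKSRP than in mock, and 1 was higher and 1 lower in the BMP2 library. Called in either direction were thus 20% in each comparison, beside 24.0% of all genes for shKSRP against mock and 18.2% for BMP2 against mock. Adam12, which encodes meltrin alpha and takes part in myoblast fusion, had 7.31 ± 0.32 FPKM in the library labelled shKSRP, 4.11 ± 0.20 FPKM in the BMP2 library and 2.28 ± 0.14 FPKM in mock. It was 3.21-fold higher in the library labelled shKSRP than in mock (log2 ratio 1.34 ± 0.08). Of the 7.31 FPKM, 3.69 was on an assembled transcript of the last 2 exons. On RefSeq transcripts alone the log2 ratio was 0.49. Adam23, a family member without protease activity that is known from neurons, had 2.75 ± 0.27 FPKM in the library labelled shKSRP, 0.71 ± 0.13 FPKM in the BMP2 library and 0.52 ± 0.12 FPKM in mock. Its log2 ratio was 1.3 to mock and 1.13 to the BMP2 library, with 0.93 and 0.81 over a fixed gene length.

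Adam10, the sheddase of Notch ligands, Notch receptors and cadherins, had 37.4 ± 0.85 FPKM in the library labelled shKSRP, 43.4 ± 1.14 FPKM in the BMP2 library and 20.7 ± 0.53 FPKM in mock. It just passed the call in the BMP2 library against mock (1.03 ± 0.05). That call rests on an assembled piece of 3 exons at the 3′ end with 26.6 FPKM. On the RefSeq transcript the BMP2 library had 16.8 FPKM and mock 20.7 FPKM, a log2 ratio of -0.28. Over a fixed gene length the ratio was 0.57. Adam17, the convertase of TNF, had 17.6 ± 0.58, 20.4 ± 0.55 and 19.2 ± 0.79 FPKM in the libraries labelled shKSRP, BMP2 and mock. Its log2 ratios to mock were -0.12 and 0.08, both under the call. On the RefSeq transcript alone Adam17 had 5.15, 20.4 and 5.14 FPKM, and the BMP2 library was called higher than mock. Over a fixed gene length it had 16.6, 20.4 and 14.0 FPKM and was called in no comparison.

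Adam9, a sheddase also called meltrin gamma, was the most abundant ADAM in the library labelled shKSRP, with 61.8 ± 0.95 FPKM there, 52.1 ± 1.06 FPKM in the BMP2 library and 34.6 ± 0.96 FPKM in mock. Its log2 ratios to mock were 0.82 and 0.58, and mock has a further 68.9 FPKM on a short assembled transcript over its 3′ end that is listed on the opposite strand and is not in the sum. Adam15 had 41.5 ± 0.93 FPKM in the library labelled shKSRP, 54.2 ± 1.13 FPKM in the BMP2 library and 38.0 ± 0.93 FPKM in mock, and was called in no comparison. All of it was on the RefSeq transcript that lacks 2 exons of 147 bases in total. Adam1a, a gene known from sperm, had 0.63 ± 0.11 FPKM in the library labelled shKSRP and 1.34 ± 0.20 FPKM in mock, and it was listed at 0 in the BMP2 library. Its call as lower in the BMP2 library rests on this 0. Of the genes compared, 321 are listed at 0 in the BMP2 library, and 44 of these have 5 FPKM or more in both others. A 0 can thus be a failed estimate. Adam1a and Adam9 share their loci with other genes in the BMP2 library alone, and Adam15 in the BMP2 library and mock.

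Adamts4 had the widest range of the ADAMTS genes. It encodes an aggrecanase, and its level was 33.1 ± 0.72 FPKM in the library labelled shKSRP and 6.76 ± 0.35 FPKM in the BMP2 library, while mock listed it at 0. It was 4.89-fold higher in the library labelled shKSRP than in the BMP2 library (log2 ratio 2.13 ± 0.07), all on the RefSeq transcript (mm9 chr1:173180553-173190053). No fold is given against mock. Of the genes compared, 306 are listed at 0 in mock, and 75 of these have 5 FPKM or more in both other libraries, so a 0 can be a failed estimate. Whether the mock cells lacked Adamts4 RNA was not tested.

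Adamts1, another proteoglycan-cutting ADAMTS gene, had 2.65 ± 0.18 FPKM in the library labelled shKSRP, 6.70 ± 0.30 FPKM in the BMP2 library and 4.01 ± 0.23 FPKM in mock. It was 2.53-fold lower in the library labelled shKSRP than in the BMP2 library (log2 ratio -1.08 ± 0.09) and was not called against mock. Its neighbour on chromosome 16, Adamts5, the other main aggrecanase, had 3.76 ± 0.24 FPKM in the library labelled shKSRP, 3.04 ± 0.19 FPKM in the BMP2 library and 2.48 ± 0.16 FPKM in mock. Its log2 ratios to mock were 0.45 and 0.21 and that of the library labelled shKSRP to the BMP2 library was 0.24, all under the call. The 2 genes lie within 107 kb in mm9.

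Adamts2, which removes the amino-terminal propeptide of fibrillar procollagens, was higher than mock in both other libraries. It had 6.08 ± 0.31 FPKM in the library labelled shKSRP, 4.90 ± 0.30 FPKM in the BMP2 library and 1.83 ± 0.18 FPKM in mock, with log2 ratios of 1.32 ± 0.11 and 1.06 ± 0.12. Adamts14, which shares this activity, stood at -0.40 and -0.75 on the log2 scale, under the call. Adamts16 had 1.35 ± 0.22 FPKM in the library labelled shKSRP, 1.21 ± 0.25 FPKM in the BMP2 library and 0.12 ± 0.04 FPKM in mock. Its log2 ratios to mock of 1.07 and 0.98 lie just inside and just outside the call. They rest on low values and on assembled pieces, and over RefSeq transcripts alone the ratio of the library labelled shKSRP to mock was 0.05.

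Among the ADAMTS-like genes, Adamtsl4, whose protein binds fibrillin microfibrils, was the most abundant. It had 30.4 ± 0.83 FPKM in the library labelled shKSRP, 39.6 ± 0.82 FPKM in the BMP2 library and 24.1 ± 0.63 FPKM in mock, and was called in no comparison. Adamtsl3, a secreted matrix protein, was high in the BMP2 library. It had 2.11 ± 0.14 FPKM in the library labelled shKSRP, 7.04 ± 0.28 FPKM in the BMP2 library and 1.95 ± 0.14 FPKM in mock. Its log2 ratio was 1.45 ± 0.09 in the BMP2 library against mock and -1.37 ± 0.08 in the library labelled shKSRP against the BMP2 library. Adamtsl1 had 0.14 ± 0.03, 1.51 ± 0.36 and 0.28 ± 0.13 FPKM in the libraries labelled shKSRP, BMP2 and mock. Most of its value in the BMP2 library, 1.07 FPKM, is a 5-exon piece of the gene's start, and over a fixed gene length the ratio of the library labelled shKSRP to the BMP2 library was -0.41 in place of -1.13.

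Several calls rest on low values, and that of Adam10 lies just past the threshold. With a pseudocount of 5 in place of 1, Adam12, Adam23, Adamts2, Adamts16, Mmp15 and Mmp28 were no longer called in the library labelled shKSRP against mock, with log2 ratios of 0.31 to 0.78. In the BMP2 library against mock, Adam10, Adamts2, Adamtsl3 and Mmp23 were no longer called higher, at 0.54 to 0.91. Still called were Timp1, Timp3, Mmp11 and Adamts4 in the library labelled shKSRP, and Mmp2, Mmp11, Mmp14, Mmp28 and Adamts4 in the BMP2 library.

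**Figure D5:**
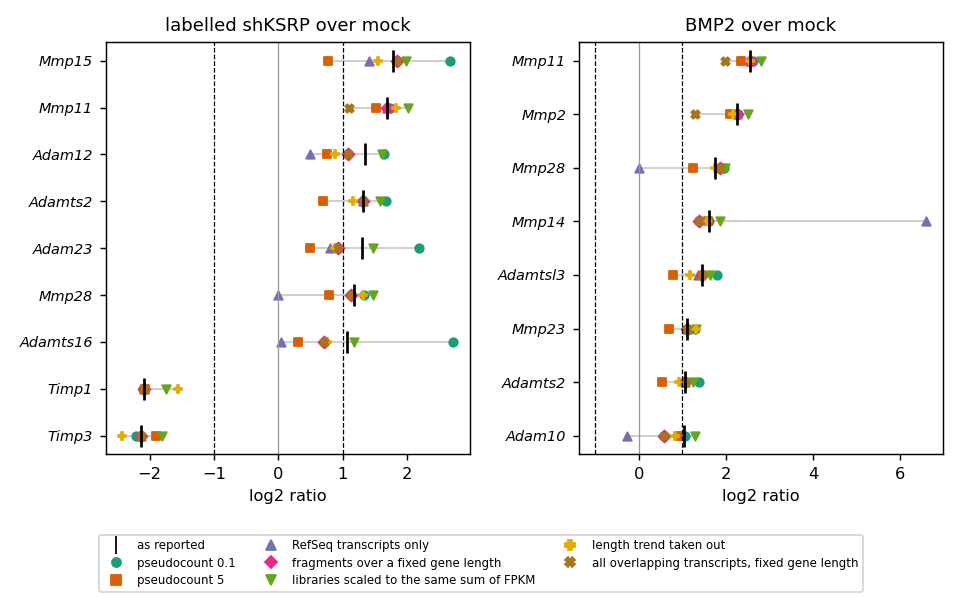
Log2 ratios to mock of the members called in the library labelled shKSRP (left) and higher in the BMP2 library (right), with genes whose libraries are all above 0, as reported (black bars) and under other ways of counting (coloured symbols). Dashed lines mark the call of 1 in size. Timp1, Timp3 and Mmp11 on the left and Mmp11, Mmp2 and Mmp14 on the right stay beyond the lines under each of them, and the other genes cross a line under at least 1.

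A set of 10 described members, Mmp16, Adam5, Adam8, Adam17, Adam19, Adamts5, Adamts6, Adamts7, Adamts10 and Adamts14, was called in no comparison, as were Adam9, Adam15, Adamtsl4 and Timp2 above. Their levels ran from 0.57 FPKM (Adam5 in mock) to 20.4 FPKM (Adam17 in the BMP2 library). Their log2 ratios to mock ran from -0.50 (Adam8) to 0.61 (Adamts10) for shKSRP and from -0.75 (Adamts14) to 0.55 (Adamts10) for BMP2. Some were called under other ways of counting. Over a fixed gene length Adamts7 was called higher in shKSRP against mock, at 5.96 and 2.14 FPKM. On RefSeq transcripts alone, Adamts7 and Adam9 were called higher and Adam8 lower in shKSRP against mock. In BMP2 against mock, Adam17 was then called higher and Adam19 and Adamts14 lower. In shKSRP against BMP2, Adam19, Adamts7 and Adamts14 were then called higher and Adam17 and Adamtsl4 lower.

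The 52 members under 1 FPKM in every library include 24 listed at 0 in all 3. Their highest value was 0.98 FPKM, for Adamts12. On mouse chromosome 9 (mm9 chr9:7272514-7699416) lie 10 MMP genes side by side, among them the collagenases Mmp13 and Mmp8, the stromelysins Mmp3 and Mmp10 and the metalloelastase Mmp12. None of the 10 reached 1 FPKM, and their highest value was 0.19 FPKM. Of the 5 ADAM genes in a group on chromosome 8 (mm9 chr8:25712718-26127394), Adam9 and Adam5 were at 1 FPKM or more. On the same chromosome are 2 further groups of 4 ADAM genes each, of a kind known mostly from testis, and all 8 were listed at 0 in the 3 libraries.

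Other genes of the system were taken from lists, whose counts stand beside the shares of all genes called. These are 11.0% higher and 12.9% lower for shKSRP against mock, 9.21% and 8.95% for BMP2 against mock, and 6.07% and 8.66% for shKSRP against BMP2. Of 11 compared partners and maturation factors, 1 was higher and 2 lower in the library labelled shKSRP than in mock, and none was higher and 1 lower in the BMP2 library. Tspan15, a tetraspanin that steers ADAM10, had 3.46 ± 0.40 FPKM in the library labelled shKSRP, 5.29 ± 0.31 FPKM in the BMP2 library and 12.7 ± 0.47 FPKM in mock (log2 ratios -1.62 and -1.13). Bsg, an inducer of MMPs in neighbouring cells, fell to 373 ± 4.09 FPKM in the library labelled shKSRP, against 857 ± 11.5 FPKM in mock. Pcsk7, a proprotein convertase, had 12.9 FPKM in the library labelled shKSRP and was listed at 0 in the others. The count of 1 higher rests on Pcsk7 alone, and a 0 can be a failed estimate.

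Of 5 compared genes of other inhibitors and clearance, 1 was higher and 1 lower in the library labelled shKSRP than in mock, and 1 was higher in the BMP2 library, where the shares called in either direction over all genes were 24.0% and 18.2%. Thbs1, a thrombospondin that binds MMPs and takes them to clearance by Lrp1, had 1539 ± 4.76 FPKM in the library labelled shKSRP, 1900.1 ± 7.72 FPKM in the BMP2 library and 211 ± 1.81 FPKM in mock (log2 ratios 2.86 and 3.17). Thbs2 had 27.0 ± 0.69 FPKM in the library labelled shKSRP and 61.4 ± 1.38 FPKM in mock (-1.16). Of 4 compared astacin-related genes, 1 was lower in the library labelled shKSRP than in mock and none was called in the BMP2 library. It was Pcolce2, an enhancer of procollagen C-proteinase, with 11.6 ± 0.61 FPKM in the library labelled shKSRP, 85.1 ± 1.77 FPKM in the BMP2 library and 72.2 ± 1.61 FPKM in mock.

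Among 13 compared matrix substrates, 4 were higher and 1 lower in the library labelled shKSRP than in mock, and 5 were higher and 1 lower in the BMP2 library. Over all genes 11.0% were higher and 12.9% lower in the first of these comparisons, and 9.21% and 8.95% in the second. Bgn, the proteoglycan biglycan, had 1206 ± 6.47 FPKM in the library labelled shKSRP and 252 ± 2.62 FPKM in mock. Col1a1, a chain of type I collagen, had 15.7 ± 0.49 FPKM in the library labelled shKSRP, 31.9 ± 0.87 FPKM in the BMP2 library and 2.88 ± 0.23 FPKM in mock. Nid1, a basement membrane protein, was lower than mock in both, with 23.0 ± 0.51, 35.4 ± 0.68 and 105 ± 1.22 FPKM in the libraries labelled shKSRP, BMP2 and mock. The collagen chains Col1a2 and Col5a1 were higher in the BMP2 library than in mock by log2 ratios of 1.96 and 1.66.

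Of 20 compared substrates of shedding at the cell surface, 4 were higher and 5 lower in the library labelled shKSRP than in mock, and none was higher and 4 lower in the BMP2 library. The same shares of all genes apply, 11.0% and 12.9% for shKSRP against mock and 9.21% and 8.95% for BMP2 against mock. Areg, an EGF family ligand released by ADAM17, had 1.87 ± 0.32 FPKM in the library labelled shKSRP, 1.43 ± 0.29 FPKM in the BMP2 library and 22.4 ± 1.15 FPKM in mock. Ereg, a relative of it, had 1.89 ± 0.16, 4.62 ± 0.27 and 15.3 ± 0.48 FPKM in the libraries labelled shKSRP, BMP2 and mock. Sdc4, a syndecan, fell to 23.2 ± 0.75 FPKM in the library labelled shKSRP, against 71.5 ± 1.72 FPKM in mock. Cdh15, a myoblast cadherin, fell to 5.02 ± 0.34 FPKM in the BMP2 library, against 38.3 ± 0.93 FPKM in mock. The 4 higher in the library labelled shKSRP than in mock, named after their values were seen, were App, Dll1, Jag1 and Cdh2. App, the amyloid precursor protein, had 209 ± 2.40 FPKM in the library labelled shKSRP, 129 ± 1.91 FPKM in the BMP2 library and 81.7 ± 1.60 FPKM in mock (log2 ratio to mock 1.35 for shKSRP). The Notch ligand genes Dll1 and Jag1 had 3.83 and 5.43 FPKM in the library labelled shKSRP and 0.88 and 1.92 FPKM in mock (1.37 and 1.14). Cdh2, the gene of N-cadherin, had 54.3 ± 0.82 FPKM in the library labelled shKSRP and 25.4 ± 0.59 FPKM in mock (1.06).

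In the library labelled shKSRP against the BMP2 library, where 6.07% of all genes were higher and 8.66% lower, 1 of the 11 partners and maturation factors was higher and 1 lower, and of the 5 other inhibitors and clearance genes none was higher and 1 lower. The partner called higher was Pcsk7, listed at 0 in the BMP2 library. Of the 4 astacin-related genes none was higher and 2 were lower, of the 13 matrix substrates 1 was higher and 1 lower, and of the 20 shed substrates 2 were higher and 5 lower. The median log2 ratio to mock, for shKSRP and then for BMP2, was 0.61 and 0.72 for the matrix substrates, -0.01 and 0.09 for the shed substrates and 0.14 and 0 for the partners. It was 0.19 and 0.19 for the other inhibitors and -0.68 and 0.20 for the astacin-related genes, beside -0.02 and 0.03 over all genes.

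Markers of other cell types moved beside these values. Of 6 osteoblast markers, those under 1 FPKM numbered 3 in the library labelled shKSRP, 1 in the BMP2 library and 3 in mock, and Ibsp was listed at 0 in all. Their sums were 20.1, 90.0 and 39.3 FPKM, with Alpl at 0.45, 12.8 and 0.05 FPKM in those libraries. Bglap2 had 4.29, 43.0 and 23.2 FPKM and Bglap 1.21, 13.3 and 7.34 FPKM. Both were called lower in shKSRP against mock (-2.19 and -1.92), and both are at loci shared with other genes. Sp7 had 0.53, 8.12 and 0.19 FPKM and Runx2 13.6, 12.8 and 8.55 FPKM. Alpl and Sp7 were called higher in BMP2 against mock (3.71 and 2.94), and neither was called in shKSRP against mock. Of 3 chondrocyte markers, 2, 1 and 1 were under 1 FPKM and the sums were 6.29, 87.0 and 20.7 FPKM, with Col2a1 at 0.06, 68.8 and 6.95 FPKM. Sox9 had 6.23, 18.1 and 13.7 FPKM, a log2 ratio to mock of -1.03 for shKSRP and 0.38 for BMP2. Of 6 macrophage markers 5 matched a symbol, and 4, 3 and 5 of these were under 1 FPKM, with sums of 4.19, 3.96 and 1.16 FPKM. Adgre1 and Itgam were listed at 0 in all 3 libraries and Ptprc was at most 0.01 FPKM. Lyz2, a macrophage lysozyme gene, had 3.98, 1.83 and 0.60 FPKM in the libraries labelled shKSRP, BMP2 and mock, and was called higher in shKSRP against mock (1.64). Csf1r had 0.21, 2.13 and 0.55 FPKM and was called higher in BMP2 against mock (1.01). Of 3 adipocyte markers, 3, 2 and 3 were under 1 FPKM and the sums were 0.54, 5.17 and 0.63 FPKM. Of these sums Fabp4 made up 0.53, 5.10 and 0.61 FPKM, a log2 ratio of 1.92 in the BMP2 library against mock. The part of these cell states in the protease values was not tested, and in bulk RNA fewer cells that express a gene and less RNA of it per cell cannot be told apart.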

How the data were processed

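The authors deposited 1 Cufflinks transcript file for each of the 3 libraries, with FPKM and its 95% interval per transcript, per the file headers and attributes. The files also hold a score per transcript, as deposited by the authors, which was not used. The submitters' processing notes list build mm9 and the tools Cufflinks 1.3.0, TopHat 1.4.1, Bowtie 0.12.7 and CASAVA 1.8, without settings. Whether strand was marked is not stated there. Assembly was separate for each library.

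FPKM of a gene was summed over its RefSeq transcripts and the assembled transcripts of its Cufflinks locus. Where a locus held several genes, the gene with the largest exon overlap took the transcript. Of 28222 RefSeq accessions, 27563 were named by RefSeq's GRCm38.p6 table, 166 from a GENCODE table and 216 from the files, and 277 kept the accession. Genes with 1 FPKM or more in any library and a longest RefSeq transcript of at least 300 nt were compared. Ratios are log2((FPKM + 1)/(FPKM + 1)) with no rescaling, and a size of 1 is a rule of size, not a test. Fragments per library were estimated from interval widths, since the files hold no counts. The ratio and the call were tested on simulated gene levels. That test did not cover the assignment of transcripts to genes, their summing or genes of low level. Coordinates are those of the files, 1-based in mm9, except for promoters.

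Values are given in all libraries for members called in any comparison and for the 10 with the highest FPKM, and listed genes that are no members are named where called, at most 3 a list and comparison. Adam17 and the genes set beside a called member were named for their known role. Members and lists were chosen with earlier results of these data known. Alternatives were other pseudocounts (0.1 and 5), filters, scalings, transcript sets and removal of the trend with transcript length. Python 3.11.15 with numpy 2.4.6, pandas 2.3.3, statsmodels 0.14.6 and matplotlib 3.10.9 was used.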

Additional observations from a re-analysis of the deposited data

How the results depend on the processing

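No paired analysis was possible because each group has 1 library, and for the same reason no library could be left out. Of the 30 called ratios of members, 167 of 210 values under alternatives were still called in the same direction. The 8 members higher in the library labelled shKSRP than in mock became 2 of 32 with a pseudocount of 5. Over all genes that count was 605 of 11463, beside 1264 as reported. With the libraries scaled to an equal sum of FPKM the 8 became 13 of 33, beside 2030 of 11496 genes. The 9 higher in the BMP2 library than in mock became 5 of 32 with a pseudocount of 5. Over all genes that count was 540 of 11463, beside 1056 as reported. The count of 1 lower in the BMP2 library (Adam1a) became 2 with a pseudocount of 0.1 (Adam1a and Adamts14). It became 2 of 25 on RefSeq transcripts alone (Adam19 and Adamts14, with Adam1a at -0.88). It became 0 with a pseudocount of 5, among genes above 0 in all libraries, and without genes at shared loci. Over all genes these counts were, in order, 1230 of 11463, 1176 of 10384, 628 of 11463, 767 of 10701 and 821 of 9753. In the library labelled shKSRP against the BMP2 library, the 3 higher became 5 with a pseudocount of 0.1 and 1 with a pseudocount of 5. On RefSeq transcripts alone they became 5 of 25, and the 7 lower became 4 with a pseudocount of 5. Over all genes the higher numbered 914 of 11463, 335 of 11463 and 1162 of 10384, and the lower 514 of 11463. A larger pseudocount takes out members of low FPKM by construction. With the trend with transcript length taken out, the members higher than mock numbered 6 for shKSRP and 7 for BMP2. Over all 11463 genes they numbered 1139 and 959. Adam12, Adam23 and Adamts16 were then not called in shKSRP against mock, while Mmp23 was (1.22). Adam10 and Adamts2 were then not called in BMP2 against mock. On RefSeq transcripts alone, 2 called ratios changed sign, Adam10 in BMP2 against mock (-0.28) and Mmp14 in the library labelled shKSRP against the BMP2 library (1.23), since assembled transcripts held most of their FPKM in the BMP2 library. Ratios under the call changed sign too, among them Adam10 (-0.19) and Mmp2 (-0.41) in shKSRP against mock, and Adamts16 (-0.16) and Timp1 (-0.81) in BMP2 against mock. The 2 members lower in the library labelled shKSRP than in mock, Timp1 and Timp3, were called lower under each alternative, and on RefSeq transcripts alone Adam8 joined them. The count with all overlapping transcripts was chosen after seeing the data. Depth does not replace replicates: the intervals hold no spread between cultures.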
